A study of Arabidopsis thaliana with 6 samples.

Results

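Catalases and superoxide dismutases were examined in imbibed seeds of Arabidopsis thaliana by taking every probe set whose title in the authors' table begins with catalase or contains superoxide dismutase. The rule found 12 of the 22746 probe sets tested. They comprised 3 catalases, 8 superoxide dismutase (SOD) enzymes and 1 chaperone that loads SODs with copper. The 2 groups were wild-type seeds of ecotype Columbia-0 (Col-0) and seeds of the anac089-2 mutant in the same ecotype, with 3 biological replicates per group and 1 ATH1 array for each. ANAC089 is a membrane-anchored NAC transcription factor. The labels do not say what the anac089-2 allele does to the gene or whether the line was crossed back. All seeds of both groups were stratified in water for 3 days in the dark at 4 °C, moved to light at 22 °C and given 5 µM abscisic acid (ABA) for 3 h, so no group was free of ABA. The comparison asks which members differ between the genotypes under ABA, and a response to ABA itself was not measured.

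Superoxide arises where electrons leak from respiratory and photosynthetic chains or is made by NADPH oxidases, and SODs turn it into hydrogen peroxide and oxygen. Catalases, which sit mainly in peroxisomes, then split hydrogen peroxide into water and oxygen. In germinating oilseeds the breakdown of stored fatty acids in peroxisomes releases hydrogen peroxide, and both ABA signalling and the release from dormancy are known to involve reactive oxygen. SODs are classed by the metal in the active site, which is copper with zinc, manganese or iron.

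Values are log2 levels after robust multi-array averaging (RMA), and differences are anac089-2 minus wild type. The 15 probe sets titled as seed storage or oil body proteins had mean levels of 8.97 to 13.8. The 20 green leaf probe sets ran from 2.66 to 9.32, the highest being a RuBisCO small subunit probe set, and 11 of 20 lay under 4. The markers found for endosperm (FIS2, 2.88), seed coat (BAN, 3.11) and root (EXP7, 3.26, and EXP18, 3.57) lay below the array medians. With 1 or 2 markers each, these levels do not show whether those tissues were present. Array medians were 3.80 in wild-type replicate 3 and 3.97 to 4.01 on the other arrays. Over all probe sets, 669 (2.94%) were higher and 451 (1.98%) lower in anac089-2 at an adjusted p under 0.05 (limma, Benjamini-Hochberg over all probe sets), the groups did not overlap in 24%, and the median difference was 0.04.

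Among the 12 members, 1 passed the threshold, against 4.92% of all probe sets, and 10 had positive differences, against 57%. The groups did not overlap in 9 members, of which 8 were higher in anac089-2 and 1, CAT1, was lower, against 15.8% and 8.23% of all probe sets. At levels 8 to 10, where CAT1 lies, these shares were 27.7% and 23.2%. Of the 2127 probe sets at those levels, 164 were higher and 173 lower past the threshold. CAT1 (AT1G20630), a catalase whose transcript is known to respond to ABA and stress, fell 1.87-fold in anac089-2. The SOD titles had mostly positive differences of at most 0.59 on the log2 scale, and 0 of 9 passed. CAT2 and CAT3, the other catalases, had differences of 0.23 and 0.08 and did not pass. In whole seeds, fewer cells of a type and less RNA per cell cannot be told apart.

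**Figure D1:**
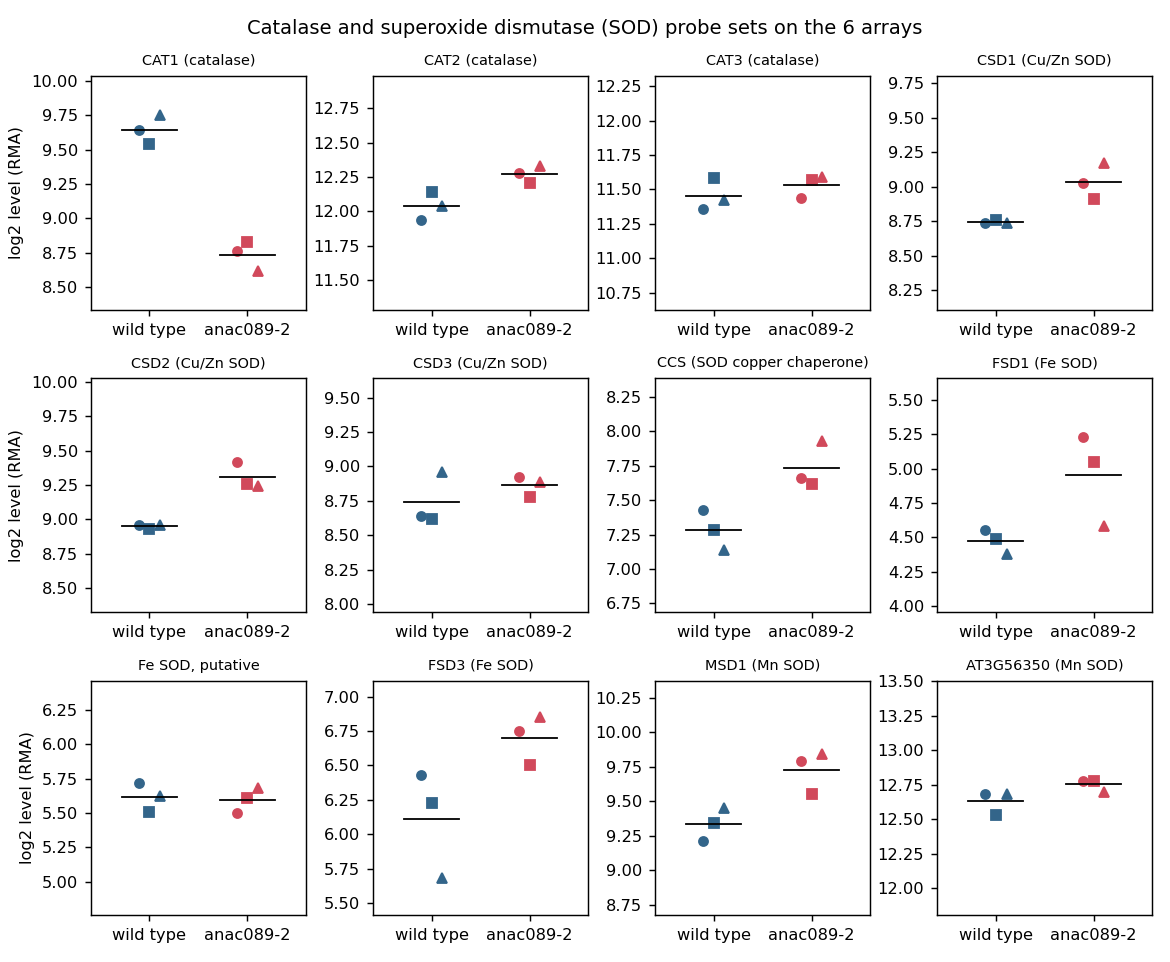
Log2 level (RMA, y axis, of equal span in all panels) of the 12 catalase and SOD probe sets in wild type (blue) and anac089-2 (red). Circles, squares and triangles are replicates 1, 2 and 3, and lines are group means; CAT1 lies between 9.54 and 9.75 in wild type and between 8.62 and 8.83 in anac089-2.

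CAT1 had log2 levels of 9.64, 9.54 and 9.75 in wild-type replicates 1, 2 and 3. In anac089-2 its levels were 8.76, 8.83 and 8.62. All 3 mutant arrays lay below all 3 wild-type arrays, with a gap much wider than the spread within either group. The group means were 9.64 ± 0.105 and 8.74 ± 0.107 (SD, n = 3 each). The difference was -0.91 ± 0.107 (SE; 95% interval -1.16 to -0.66; limma adjusted p = 0.0117). By unadjusted p it ranked 94 among the 22746 probe sets, and by size of change 619. CAT1 passed without any 1 of the wild-type arrays or anac089-2 replicate 2, and did not pass without anac089-2 replicate 1 (-0.92, limma adjusted p = 0.0712) or replicate 3 (-0.85, limma adjusted p = 0.0824). Over all probe sets the number past the threshold was 6 and 4 in those same fits.

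CAT2 (AT4G35090), the catalase known for removing photorespiratory hydrogen peroxide in leaves, had log2 levels of 11.94, 12.14 and 12.04 in wild type. In anac089-2 it had 12.28, 12.21 and 12.33. The lowest mutant array lay just above the highest wild-type array. The difference was 0.23 ± 0.0988 (SE; 95% interval 0.0013 to 0.47; limma adjusted p = 0.256), and 0.14 with each array centred on its median. CAT3 (AT1G20620), also known as SEN2 for its link with senescence, had 11.36, 11.58 and 11.42 in wild type. In anac089-2 it had 11.44, 11.57 and 11.59, so the groups overlapped. Its difference was 0.08 (95% interval -0.16 to 0.32; limma adjusted p = 0.738), and centring each array on its median turned this to -0.01. CAT1 and CAT3 are next to each other among protein-coding genes of chromosome 1 in the RefSeq annotation of TAIR10.1.

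The catalases were also set against each other within each array. The log2 level of CAT1 minus that of CAT2 was -2.30, -2.60 and -2.29 in wild type and -3.52, -3.38 and -3.71 in anac089-2. The mean of this within-array difference was thus 1.14 lower in the mutant, a change of -1.14 in which the groups did not overlap. CAT1 minus CAT3 changed by -0.99, again without overlap, from -1.81 ± 0.201 to -2.80 ± 0.153 (SD, n = 3 each). CAT2 minus CAT3 changed by 0.15, from 0.59 ± 0.0306 to 0.74 ± 0.100 (SD, n = 3 each), also without overlap. Each of the 3 pairs gave a two-sided p of 0.1 in an exact permutation test over arrays (0.1 after Benjamini-Hochberg adjustment), which is the smallest that 3 against 3 arrays can give. The levels of different probe sets are not comparable, so only the change of each difference between genotypes carries meaning.

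**Figure D2:**
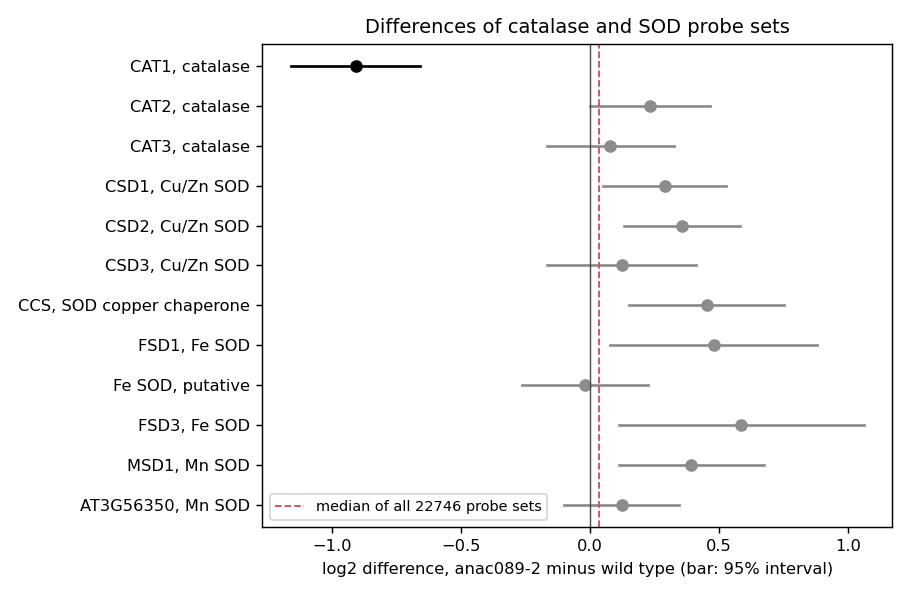
Log2 difference between anac089-2 and wild type (x axis) for each catalase and SOD probe set, with its 95% interval from the limma fit; black marks an adjusted p under 0.05. CAT1 stands alone at -0.91, and the SOD titles spread from -0.02 to 0.59 around and above the dashed median of all probe sets (0.04).

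The 9 SOD titles had 8 positive differences and 1 negative one, with a median of 0.36. The groups did not overlap in 7 of them, all higher in anac089-2, against 15.8% of all probe sets and 25.3% to 33% of probe sets within the level ranges from 4 to 6 up to 10 to 15 in which the members fall. An unadjusted p under 0.05 was reached by 6 of 9, against 19.3% of all probe sets and 27.7%, 34.7%, 44.1% and 54.6% of those at levels 4 to 6, 6 to 8, 8 to 10 and 10 to 15. Yet 0 passed after adjustment, both here and by FDR in the authors' deposited table. The number without overlap depends on scaling. It was 6 after a second quantile normalization (14% of all probe sets) and after cyclic loess (13.8%), and 3 after centring each array on its median (12%), with 8 of 9 positive each time.

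Among the copper/zinc SODs, CSD2 (AT2G28190), the chloroplast enzyme, came closest to the threshold. Its log2 levels were 8.96, 8.93 and 8.96 in wild type and 9.42, 9.26 and 9.24 in anac089-2. The wild-type arrays lay within 0.03 of each other, and all mutant arrays lay above them. The difference was 0.36 ± 0.0954 (SE; 95% interval 0.13 to 0.58; limma adjusted p = 0.0850).

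CSD1 (AT1G08830), the cytosolic enzyme, had 8.74, 8.76 and 8.74 in wild type and 9.03, 8.91 and 9.17 in anac089-2. Again the wild-type arrays were tightly grouped and all mutant arrays lay above them, by 0.29 ± 0.102 on average (SE; limma adjusted p = 0.172). CSD3 (AT5G18100), the peroxisomal enzyme, had 8.64, 8.62 and 8.96 in wild type and 8.92, 8.78 and 8.89 in anac089-2. These groups overlapped, because wild-type replicate 3 was the highest array of all. The difference was 0.12 (95% interval -0.16 to 0.41; limma adjusted p = 0.649), and 0.23 without that array and 0.033 with each array centred on its median.

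CCS (AT1G12520) encodes the chaperone that inserts copper into the copper/zinc SODs. Its log2 levels were 7.43, 7.28 and 7.14 in wild type and 7.66, 7.62 and 7.93 in anac089-2, without overlap. The difference was 0.45 ± 0.128 (SE; 95% interval 0.15 to 0.75; limma adjusted p = 0.0994). Transcripts of CSD1, CSD2 and CCS are known targets of the microRNA miR398 in Arabidopsis. None of the 3 passed the threshold.

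MSD1 (AT3G10920), the mitochondrial manganese SOD, had log2 levels of 9.21, 9.34 and 9.45 in wild type. In anac089-2 it had 9.79, 9.55 and 9.84, so the lowest mutant array exceeded the highest wild-type array. The difference was 0.39 ± 0.120 (SE; 95% interval 0.11 to 0.67; limma adjusted p = 0.122). AT3G56350, titled a putative manganese SOD, had 12.68, 12.53 and 12.68 in wild type and 12.78, 12.78 and 12.70 in anac089-2. The gap between the groups was only 0.02, and the difference of 0.12 (95% interval -0.10 to 0.35) had a limma adjusted p of 0.546. The difference was 0.033 with each array centred on its median and 0.21 with cyclic loess.

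Among the iron SODs, FSD3 (AT5G23310) had the largest difference of any SOD title. FSD3 works in the plastid nucleoid, where the plastid genome is transcribed. Its log2 levels were 6.43, 6.23 and 5.68 in wild type and 6.75, 6.50 and 6.85 in anac089-2. The groups did not overlap, but wild-type replicate 3 lay far below the other 2 wild-type arrays. The difference was 0.59 ± 0.202 (SE; 95% interval 0.11 to 1.06; limma adjusted p = 0.166), and 0.37 (limma adjusted p = 0.163) without wild-type replicate 3.

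FSD1 (AT4G25100), an iron SOD of plastid and cytosol, had log2 levels of 4.55, 4.49 and 4.38 in wild type and 5.23, 5.05 and 4.58 in anac089-2. Mutant replicate 3 lay only 0.03 above the highest wild-type array, while the other 2 mutant arrays were clearly higher. The difference was 0.48 ± 0.171 (SE; 95% interval 0.08 to 0.88; limma adjusted p = 0.178), and 0.29 after a second quantile normalization and 0.28 after cyclic loess. The remaining iron SOD, titled putative and with no gene name in the sources used here, had 5.72, 5.51 and 5.62 in wild type and 5.50, 5.61 and 5.68 in anac089-2. The groups overlapped, with a difference of -0.02 (95% interval -0.26 to 0.22; limma adjusted p = 0.941). It was -0.22 after a second quantile normalization, -0.23 after cyclic loess (limma adjusted p = 0.470 and 0.449) and -0.11 with each array centred on its median.

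Beside these 2 families, 10 lists were formed by title, with 108 probe sets in all. They cover enzymes that make or remove superoxide and hydrogen peroxide, and also peroxisome assembly and import, the glyoxylate cycle and metal delivery. Of these, 4 rose and 6 fell, or 10 of 108 against 4.92% of all probe sets, and their median difference was 0.06 against 0.04. The lists were brighter, with a median level of 6.58 against 3.96 over all probe sets, and brighter probe sets passed more often. At levels 4 to 6, 173 of 4381 probe sets rose and 55 fell. At levels 6 to 8, 216 of 4100 rose and 150 fell. At levels 8 to 10, 164 of 2127 rose and 173 fell. Of the 10 list probe sets past the threshold, 4 were ferritins, which store iron. With 1 array left out, 6 of the 10 passed in 1 of 6 fits (BAS1, GPX1, the glycolate oxidase, the PEX11 probe set and the ferritins 251735_at and 256416_at), and none of the 10 passed in more than 5 of 6. The 15 seed storage and oil body titles had array means of 11.55 to 11.62 in the mutant and 11.78 to 11.95 in wild type. Of these 15, 4 fell, 0 rose and 11 did not pass, and 4 had positive differences. Their median level was 12.65. At levels 10 to 15, 92 of 615 probe sets rose, 67 fell and 47.2% had positive differences. The part of the lower array means of these titles in these results and in that for CAT1 was not tested.

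**Figure D3:**
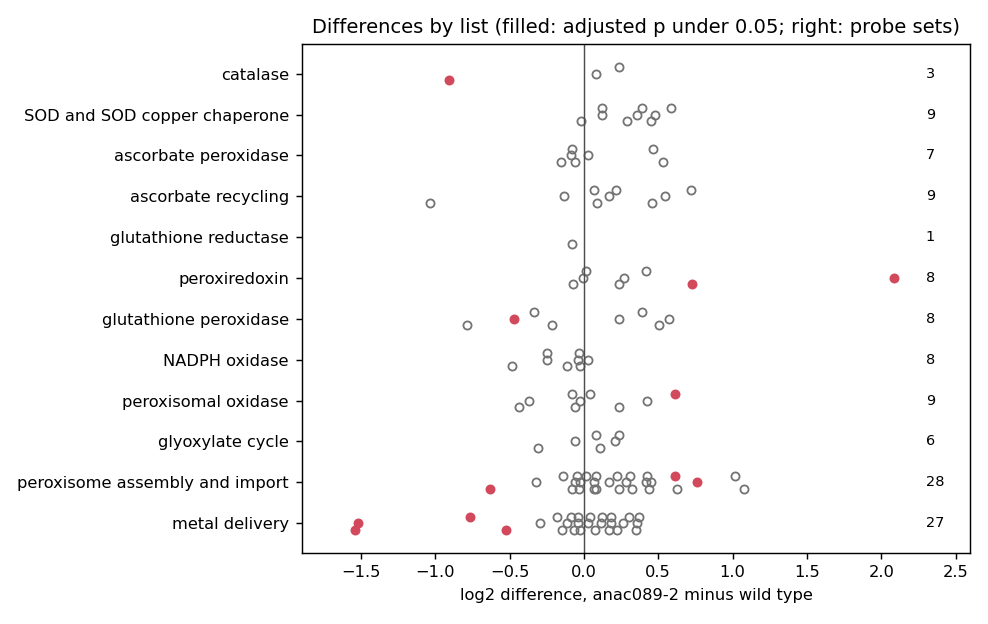
Log2 difference between anac089-2 and wild type (x axis) for each probe set of the catalase, SOD and 10 further lists, with the number of probe sets at the right. Filled points passed an adjusted p of 0.05. They include CAT1 (-0.91), a peroxiredoxin type 2 (2.09) and the 4 ferritins (-1.54 to -0.53).

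Sources of superoxide and hydrogen peroxide came first. None of the 8 NADPH oxidase (respiratory burst oxidase) probe sets passed limma's test, 1 had an unadjusted p under 0.05 (19.3% of all probe sets), and 7 of 8 had negative differences (43% of all probe sets). The mean levels of 6 of the 8 were under 4, close to the array medians or below them. The share of negative differences varied with level and was not taken for levels under 4, so the 43% is not matched for level. RbohD, the family member best known from defence and wound signalling, had -0.25 (limma adjusted p = 0.217). RbohB, known from seed after-ripening, had -0.48 (limma adjusted p = 0.560), a value that rests on 1 array. Its wild-type levels were 2.67, 2.77 and 4.23, and without wild-type replicate 3 the difference was 0.02.

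Of 9 peroxisomal oxidases, 1 rose and 0 fell, against 2.94% and 1.98% of all probe sets, and 8 did not pass. A probe set titled glycolate oxidase, the photorespiratory enzyme that releases hydrogen peroxide in peroxisomes, had levels of 8.55, 8.13 and 8.19 in wild type and 8.87, 8.96 and 8.87 in anac089-2. All mutant arrays lay above the wild type, with a rise of 0.61 ± 0.131 (SE; limma adjusted p = 0.0460). It shares probes between similar sequences, and its adjusted p was 0.0540 with limma after centring each array on its median.

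Enzymes that remove hydrogen peroxide with ascorbate or glutathione gave mixed values. None of 7 ascorbate peroxidases passed limma's test, with 2 of 7 at an unadjusted p under 0.05, against 19.3% of all probe sets. The median level of the 7 was 3.92, close to the array medians, so several of them were dim. The largest differences were those of APX3, which sits on the peroxisome membrane (0.53, limma adjusted p = 0.0634), and of cytosolic APX1 (0.46, limma adjusted p = 0.100).

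None of 9 probe sets for enzymes that recycle ascorbate passed limma's test. An unadjusted p under 0.05 was reached by 4 of 9, against 19.3% of all probe sets. It was 34.7% at levels 6 to 8, where the median level of this list (6.70) lies. A putative dehydroascorbate reductase had 7.65, 7.36 and 6.63 in wild type and 5.95, 6.32 and 6.26 in anac089-2. The groups did not overlap, although wild-type replicate 3 came close to the mutant. Its difference of -1.04 had a limma adjusted p of 0.0669, and of 0.0217 with each array centred on its median. A putative monodehydroascorbate reductase had 0.72 (limma adjusted p = 0.0962). It passed after a second quantile normalization (0.58, limma adjusted p = 0.0284) and cyclic loess (0.57, limma adjusted p = 0.0370). With each array centred on its median it did not (0.63, limma adjusted p = 0.0592). GR1, the only glutathione reductase title, had -0.08 (limma adjusted p = 0.707).

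Among 8 glutathione peroxidase titles 0 rose and 1 fell, against 2.94% and 1.98% of all probe sets, and 7 did not pass. The chloroplast enzyme titled GPX1, which reduces lipid peroxides, had 8.66, 8.58 and 8.52 in wild type and 8.09, 8.17 and 8.08 in anac089-2. The groups were well separated, and GPX1 fell by 0.47 (SE 0.0928, limma adjusted p = 0.0342).

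Peroxiredoxins are thiol enzymes that reduce peroxides. Of 8, 2 rose and 0 fell, against 2.94% and 1.98% of all probe sets, and 6 did not pass. A probe set titled peroxiredoxin type 2, which shares probes between 2 such genes, had 7.87, 7.44 and 7.22 in wild type and 9.88, 9.17 and 9.74 in anac089-2. The lowest mutant array lay well above the highest wild-type array, a rise of 4.25-fold (2.09 ± 0.231, SE; limma adjusted p = 0.0117). BAS1 (AT3G11630), the 2-cys peroxiredoxin of the chloroplast, rose by 0.73 (SE 0.157, limma adjusted p = 0.0467).

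Peroxisome assembly and import held 28 probe sets, of which 2 rose and 1 fell, against 2.94% and 1.98% of all probe sets. The other 25 did not pass. One of the rises was the glycolate oxidase described above, which belongs to both lists. A probe set of the PEX11 family, whose members drive peroxisome division, rose by 0.76 (SE 0.168, limma adjusted p = 0.04996). After a second quantile normalization, cyclic loess or median centring it did not pass (limma adjusted p = 0.143, 0.130 and 0.0570). PXA1, which imports fatty acids into peroxisomes, had 7.99, 7.89 and 7.95 in wild type and 7.19, 7.42 and 7.32 in anac089-2. It fell by 0.63 (SE 0.101, limma adjusted p = 0.0203), with both groups tightly spaced.

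The glyoxylate cycle list, chosen by title, held 6 probe sets, but 4 of them were 2-isopropylmalate synthases of leucine synthesis. None of the 6 passed limma's test. Isocitrate lyase (ICL) alone had an unadjusted p under 0.05, against 19.3% of all probe sets and 54.6% at levels 10 to 15, where it lies. ICL had 13.54, 13.51 and 13.59 in wild type and 13.76, 13.74 and 13.76 in anac089-2. Its difference was 0.21 (limma adjusted p = 0.254). Malate synthase, which turns acetyl units from stored oil towards sugar synthesis, had 0.23 (limma adjusted p = 0.270). A 2-isopropylmalate synthase had -0.31 (limma adjusted p = 0.261).

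Metal delivery held 27 probe sets, of which 0 rose, 4 fell and 23 did not pass, while 2.94% of all probe sets rose and 1.98% fell. The 4 that fell were the 4 ferritin titles of the array, a subgroup singled out after the values were seen. Ferritins store iron in plastids and mitochondria and so limit the iron that can react with hydrogen peroxide. The other 23, which cover copper chaperones, copper and iron transporters and metallothioneins, had differences of -0.30 to 0.37.

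**Figure D4:**
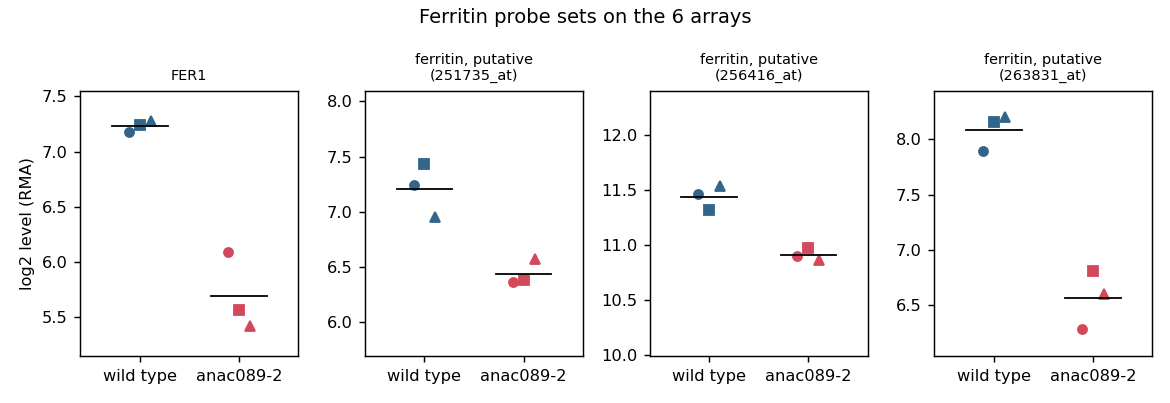
Log2 level (RMA, y axis, of equal span in all panels) of the 4 ferritin probe sets in wild type (blue) and anac089-2 (red). Circles, squares and triangles are replicates 1, 2 and 3, and lines are group means; in each panel all mutant arrays lie below all wild-type arrays.

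FER1 had log2 levels of 7.18, 7.24 and 7.28 in wild type and 6.09, 5.57 and 5.42 in anac089-2. The nearest arrays of the 2 groups were more than 1 log2 unit apart, and FER1 fell 2.91-fold (-1.54 ± 0.174, SE; limma adjusted p = 0.0117). A putative ferritin, probe set 263831_at, had 7.90, 8.16 and 8.20 in wild type and 6.28, 6.81 and 6.60 in anac089-2. It too was separated by more than 1 unit, with a fall of 2.87-fold (limma adjusted p = 0.0111). The putative ferritins 251735_at and 256416_at fell by 0.77 (limma adjusted p = 0.0298) and 0.53 (limma adjusted p = 0.0311). Without anac089-2 replicate 3, FER1 had a limma adjusted p of 0.0824, as did 263831_at and the peroxiredoxin type 2 probe set. The last 2 also did not pass without anac089-2 replicate 1 (limma adjusted p = 0.0601 and 0.0709).

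The probe sets whose levels followed CAT1 most closely over the 6 arrays were described by Pearson's r, which here mostly follows the shared difference between the 2 groups. They were AT5G45840, a putative leucine-rich repeat kinase (r = 0.997), the CBL-interacting kinase gene CIPK10 (0.996), AT1G75490, a putative DRE-binding factor (0.995), a copine-related gene (0.994) and the polyubiquitin gene UBQ11 (0.994). AT1G75490 had levels of 10.36, 10.31 and 10.39 in wild type and 9.53, 9.63 and 9.49 in anac089-2, a fall of 0.80 (limma adjusted p = 0.0117).

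CIPK10 fell by 0.76 (limma adjusted p = 0.0153), the copine-related gene fell by 1.43 (limma adjusted p = 0.00775) and UBQ11 fell by 0.55 (limma adjusted p = 0.0276). With 1 array left out, UBQ11 passed in 1 of 6 fits, and CIPK10, AT1G75490 and the copine-related gene passed in 4 of 6. AT5G45840 had -0.18 (limma adjusted p = 0.320) at a level of 2.72 in wild type, below the array medians, so that r was high while the difference did not pass.

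**Figure D5:**
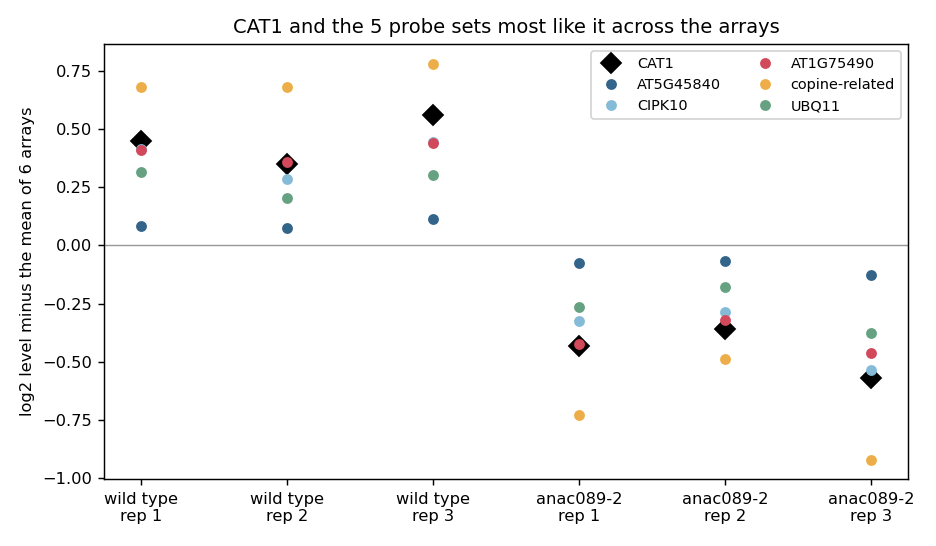
Log2 level minus the mean of the 6 arrays (y axis) on each array (x axis) for CAT1 (black diamonds) and the 5 probe sets with the highest Pearson r with it. The wild-type arrays lie above 0 and the anac089-2 arrays below 0 for all 6, and AT5G45840 has the smallest difference (-0.18).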

How the data were processed

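Total RNA of 6 seed samples was labelled with biotin, per the labels' protocols, for ATH1 arrays (Affymetrix), the platform of the probe annotation. The authors deposited log2 expression values normalised with RMA, and the submitters' processing notes also name limma. Neither source gives versions or settings. A comparison table, also deposited by the authors, holds log2 fold changes, p-values and FDR from limma, per the file headers; 4 FDR cells had lost the decimal point and were read as 1. Another 6 columns of per-array values were not used.

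After 64 control probe sets were set aside, 22746 were fitted with limma 3.58.1 (R 4.3.3, eBayes defaults, 2 groups of 3, no block), with Benjamini-Hochberg adjustment over all of them and a threshold of 0.05. Plots were drawn with matplotlib 3.10.9. The number of arrays limits the precision. Members were found in the title part of the authors' annotation column. Of the 12, 2 were named by the platform annotation, 6 by symbols in the authors' column and 3 by a title matched to RefSeq synonyms, and 1 has no name. Members and lists were chosen with earlier results of these data known.

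The text describes every member, up to 4 probe sets past the threshold per list (otherwise the 2 largest differences) and the 5 most correlated with CAT1. ICL was added outside this rule. The alternatives were other scalings, leaving out the dimmest 40% of probe sets, other estimates of the spread, a replicate block, the authors' statistics, a threshold of 0.01 and leaving out each array. A simulation of the anac089-2 and wild-type groups had 22746 probe sets, of which 200 were changed. The fit recovered 5 of 67 probe sets changed by 0.5, 56 of 67 changed by 1 and 66 of 66 changed by 2 on the log2 scale. It called 4 unchanged ones. The adjusted p depends on how many probe sets change, and the fit of the data called 1120. The simulated recovery therefore does not give the recovery in these data.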

Additional observations from a re-analysis of the deposited data

How the results depend on the processing

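CAT1 kept its direction under all 17 alternatives (-0.997 to -0.848) and its call under 13, and the other 11 members passed under none. The count of members past the threshold was 0 without moderation (6 of 12 at an unadjusted p under 0.05) and 0 at an adjusted p under 0.01 (8 of 12 unadjusted), and with 1 array left out it ran from 0 to 1. The 108 probe sets of the other lists gave 18 calls with array weights, 4 with the replicate block, 0 without moderation (32 unadjusted) and 0 at 0.01 (37 unadjusted), and 0 to 11 with 1 array left out. Of all 22746 probe sets, 3360 had an unadjusted p under 0.05 without moderation. In the main fit, which was also read at 0.01, 4390 (19.3%) did. Over all probe sets the count of 1120 became 2070 with array weights, 1784 with cyclic loess, 1701 with a second quantile normalization, 494 with the replicate block, 45 at an adjusted p under 0.01 and 1 without moderation, and 4 to 1667 with 1 array left out. The cause was not tested. Signs turned for CAT3 (-0.01, median centring), the unnamed iron SOD (0.017 with array weights, and -0.073 to 0.032 with 1 array left out, positive without wild-type replicate 1 or anac089-2 replicate 1) and RbohB (-0.76 to 0.02 with 1 array left out, positive without wild-type replicate 3). Deviations from the group means correlated at -0.09, -0.06 and -0.14 between arrays of one number, so the replicate numbers were not taken to pair the samples; CAT1 had a limma adjusted p of 0.0434 with the block.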

Other observations

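The PEX11 titles inside the peroxisome list were looked at together after their values were seen. All 5 probe sets had positive differences, from 0.01 to 1.08, with a median of 0.32, and 1 of 5 passed limma's test. Of all probe sets, 57% had positive differences and 4.92% passed. The positive share was 72.9%, 65%, 54.6% and 47.2% at levels 4 to 6, 6 to 8, 8 to 10 and 10 to 15. The 1 that passed, described above, did not pass after a second quantile normalization, cyclic loess or median centring. The largest difference belonged to probe set 266925_at, with log2 levels of 7.73, 7.50 and 6.77 in wild type and 8.58, 8.09 and 8.56 in anac089-2 (limma adjusted p = 0.0635). The groups did not overlap, and wild-type replicate 3 was the lowest array.

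Acyl-CoA oxidases release hydrogen peroxide in the first step of fatty acid breakdown, and were also looked at after their values were seen. None of the 6 probe sets passed limma's test. ACX1 had -0.44 (limma adjusted p = 0.0941), ACX3 had -0.37 (limma adjusted p = 0.100) and ACX2 had -0.08. ACX1 and ACX3 were lower without overlap of the groups, against 8.23% of all probe sets and 31.4% at levels 10 to 15. The short-chain acyl-CoA oxidase had 0.23, higher without overlap, against 15.8% of all probe sets and 27.7% at levels 8 to 10. The putative acyl-CoA oxidases had 0.04 and -0.06. With each array centred on its median, 1 of the 9 peroxisomal oxidases fell and 0 rose. With a spread that follows level, 2 fell and 1 rose.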
